A study of Homo sapiens with 6 samples.

Results

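Broad accessible domains of wild-type MCF-10A cells were taken as the called ATAC-seq peaks of the WT list that span 5000 bp or more. There were 213 of them among 98910 WT peaks (0.215%), and they held 1770.7 kb, or 2.63% of the bases in WT peaks. Each domain was looked up in the peak lists of the PIK3CA E545K and PIK3CA H1047R knock-in lines for the share of its bases covered, the number of overlapping peaks and the summed area of those peaks. The domains were chosen by their measured width in the WT list, so their width and area in WT are descriptions and carry no test.

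MCF-10A is a non-tumorigenic human breast epithelial line, and PIK3CA encodes the catalytic subunit of a PI3-kinase. E545K lies in the helical domain and H1047R in the kinase domain of that subunit. In ATAC-seq the transposase Tn5 inserts adapters into open DNA, so that sequenced fragments mark accessible chromatin. The deposited data are 1 peak list for each of 3 genotypes, each made from 2 samples. The E545K and H1047R lines were maintained without EGF, and the WT parental cells with 20 ng/ml EGF. All cells then spent 24 h in an assay medium with 1% charcoal-stripped serum and 0.2 ng/ml EGF, together with insulin, hydrocortisone and cholera toxin. Genotype and maintenance EGF therefore cannot be told apart. The labels do not say how many clones stand behind each knock-in line. Values per sample and sequencing depth are not given by the lists, so no difference below has a replicate check or a test, and intervals, where printed, are Wilson 95% intervals that cover counting error only.

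Most accessible elements in a genome are short stretches at promoters and enhancers that are a few nucleosomes wide. Wide accessible stretches are known from strongly transcribed genes, from promoters with long CpG islands, and from dense groups of enhancers at genes that define a cell type. In stratified and mammary epithelia, genes of the hemidesmosome and the focal adhesion, which anchor basal cells to the matrix beneath them, and genes that answer growth factors within minutes are among those with strong regulatory regions.

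The sequences at the highest point of 4 domains are shown here because the comparisons below turn on these domains. Each is the 300 bases centred on the WT summit, plus strand of hg38, with matches to any of 12 searched motifs in capitals. The TNS4 window (chr17:40472730-40473029, between genes) lies in a 34349 bp domain that was nearly fully covered in both knock-ins, and its capitals mark a match to the p53-family motif. The window downstream of TGFBI (chr5:136073774-136074073, between genes) belongs to the domain least covered in E545K, and its capitals mark a pair of overlapping NF-kB matches (GGGNNNTCC). The ITGB4 windows belong to domains without any peak in H1047R. The window at chr17:75727105-75727404 has its summit base in an exon and holds a TEAD match, GGAATG. The window at chr17:75737350-75737649 has its summit base in an intron and holds no match. These places are those of the summit base alone, and other bases of an ITGB4 window can lie in an exon or an intron.
TNS4: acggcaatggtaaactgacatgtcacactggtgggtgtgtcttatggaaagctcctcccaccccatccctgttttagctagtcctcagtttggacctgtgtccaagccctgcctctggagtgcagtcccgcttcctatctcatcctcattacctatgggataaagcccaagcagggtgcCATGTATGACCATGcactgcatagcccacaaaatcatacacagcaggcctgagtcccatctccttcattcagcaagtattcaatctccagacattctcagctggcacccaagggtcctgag
TGFBI, downstream domain: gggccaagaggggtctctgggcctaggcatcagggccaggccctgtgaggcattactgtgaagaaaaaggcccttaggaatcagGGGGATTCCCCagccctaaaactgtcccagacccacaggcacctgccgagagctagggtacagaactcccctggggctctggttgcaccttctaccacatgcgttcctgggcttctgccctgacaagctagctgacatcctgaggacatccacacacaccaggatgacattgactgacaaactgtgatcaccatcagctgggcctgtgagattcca
ITGB4, 8535 bp domain: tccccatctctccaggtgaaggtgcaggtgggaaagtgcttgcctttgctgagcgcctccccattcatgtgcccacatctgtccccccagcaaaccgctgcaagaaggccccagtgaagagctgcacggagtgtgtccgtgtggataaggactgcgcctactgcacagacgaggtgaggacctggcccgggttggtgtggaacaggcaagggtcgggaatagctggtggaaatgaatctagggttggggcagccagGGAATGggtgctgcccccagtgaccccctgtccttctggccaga
ITGB4, 11276 bp domain: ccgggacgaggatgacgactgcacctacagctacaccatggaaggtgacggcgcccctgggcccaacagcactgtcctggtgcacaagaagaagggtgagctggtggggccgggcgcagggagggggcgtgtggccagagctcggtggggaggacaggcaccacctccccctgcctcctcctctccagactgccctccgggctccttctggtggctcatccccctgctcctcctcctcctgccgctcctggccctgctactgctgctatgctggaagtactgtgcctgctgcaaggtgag
In the same windows around all WT summits, the TEAD letters were in 23.1%, the NF-kB letters in 13.9% and the p53-family motif in 1.91%. E545K peaks covered the summit base in all 4 of these domains. H1047R peaks covered it at TNS4 and TGFBI and at neither ITGB4 domain.

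The domains were 5000 to 36579 bp wide, with a median of 6535 bp and quartiles of 5511 and 9075 bp, against a median of 466 bp for all WT peaks. Of the 213, 46 reached 10000 bp, 14 reached 15000 bp, 6 reached 20000 bp and 2 reached 30000 bp. The area, which the authors' peak caller gives as the area under its curve over the peak, had a median of 15512 and a range of 2238 to 117895. Area per bp, used below as the height of a domain, had a median of 2.25 against 1.501 for all WT peaks, and the summit -log10 p a median of 9.08 against 4.25. A domain was thus wide and, in most cases, also high, though some were wide and flat. The highest were the domains at EGR1 (5.08 per bp), KRT16 and KRT17 (4.96), DUSP1 (4.84) and FOS (4.54), which hold immediate early genes and keratins. The flattest were those in SCRIB, a polarity gene (0.426 per bp), PLCH2, a phospholipase C gene (0.478), and IL18BP (0.533). Just inside the width limit stood domains at KRT6A (5000 bp), VPS9D1 and ZNF276 (5018 bp), YWHAZ (5021 bp), DUSP4 (5045 bp) and PPP1R15A (5050 bp). Just outside it stood peaks at FAM234B (4988 bp), SERPINB5 (4985 bp), PALLD (4979 bp), SFN (4967 bp) and GLUL (4961 bp), so the limit does not mark a break in width.

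Coding genes started in 114 of the 213 domains (53.5%), with 1 start in 94 domains, 2 in 17 and 3 in 3. These 137 genes were 0.717% of the 19111 autosomal coding genes. Of the other 99 domains, 83 overlapped the body of a coding gene and 16 overlapped none. In all, 71.8% of the bases in the domains lay in coding gene bodies, against 59.9% of the bases in all WT peaks, and 78 domains lay wholly inside gene bodies. By the place of its summit, a domain was a promoter one (within 1 kb of a start) in 80 cases (37.6%, interval 31.3 to 44.2), an intron one in 73, an intergenic one in 45 and an exon one in 15. The shares of all WT peaks with a coding start or with a promoter summit are not given here. The counts by start and by summit therefore describe the domains alone. Domains with a single start reached farther into the gene than ahead of it: 69 of 94 had more bases downstream, and 69.1% of their bases lay on that side. Chromosome 19, which is dense in genes, had 7.21 domains per 1000 WT peaks and chromosome 1 had 3.20, while chromosome 4 had 0.383. The end of the long arm of chromosome 8 had 15 domains, or 29.3 per 1000 peaks against 2.01 on all other autosomal sequence outside the short arm of chromosome 5.

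In the E545K list the WT domains were nearly all still called, and in the H1047R list many were called as several peaks. The median domain was 99.4% covered in E545K (quartiles 96.7 and 100) and 91.8% covered in H1047R (quartiles 75.1 and 98.9). Over all domains 95.6% of the bases were covered in E545K and 80.2% in H1047R. A domain was called whole when a single knock-in peak covered 90% or more of it, split when 2 or more peaks overlapped it and none reached 90%, shrunken when 1 peak covered less than 90%, and absent with no overlap. Called peaks can lie as little as 101 bp apart, so a split domain can still be almost fully covered. In E545K 156 domains were whole, 49 split, 8 shrunken and 0 absent, where 1.09% of all WT peaks were split and 20.3% absent. In H1047R 77 were whole, 100 split, 33 shrunken and 3 absent, where 1.2% of all WT peaks were split and 11% absent. The share of whole domains was thus 73.2% in E545K, where 57.7% of all WT peaks were whole, and 36.2% in H1047R, where 68.8% of all WT peaks were whole.

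Several peaks lay over 53 domains in E545K (24.9%, against 1.1% of all WT peaks) and over 104 in H1047R (48.8%, against 1.21%). In the next width class, of the 3648 WT peaks from 2000 bp up to 5000 bp, 9.29% were overlapped by 2 or more peaks in E545K and 10.9% in H1047R. Under 50% of the bases were covered in 2 domains in E545K (0.939%, against 22% of all WT peaks) and in 24 in H1047R (11.3%, against 12.7%). For H1047R that share was near the background of all WT peaks, but it was 4.11% in that next class, where E545K had 0.630%. The short peaks that make up most of the list were more often lost in E545K, with 26.5% of those under 1000 bp less than 50% covered in E545K and 14.6% in H1047R. The order of the knock-ins was therefore turned round between the shortest and the widest WT peaks.

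**Figure D1:**
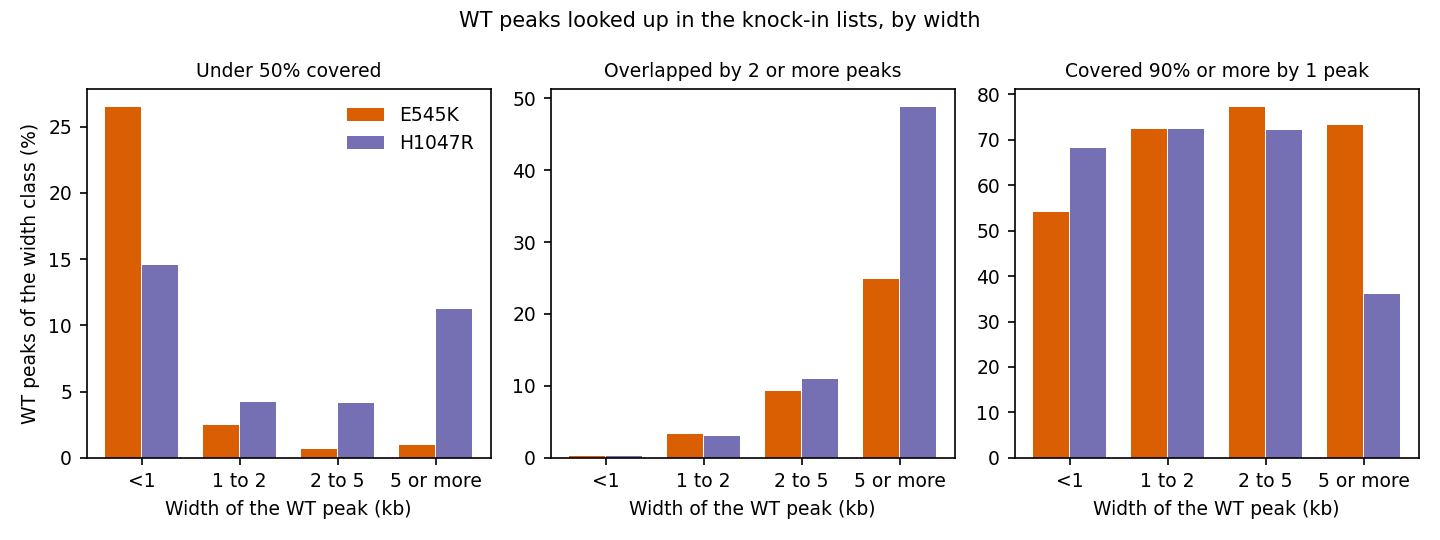
WT peaks in 4 width classes (kb, horizontal axis) looked up in the E545K (orange) and H1047R (violet) lists. Bars give the percent of the class under 50% covered (left), overlapped by 2 or more peaks (middle) and covered 90% or more by a single peak (right). In the widest class 0.939% were under 50% covered in E545K and 11.3% in H1047R, and 73.2% and 36.2% were whole.

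The area of a peak is the authors' value, is not scaled between lists and was summed over the peaks that overlap a domain, each counted whole even where it reaches beyond the domain. The part inside a domain was taken in proportion to the bases of the peak that lie in it. With whole peaks, counted again for each domain they overlap, the summed area was 1.05 times the WT sum in E545K and 0.922 times in H1047R. By the same whole-peak count the median log2 ratio to WT was -0.04 in E545K and -0.21 over the 210 domains with a peak in H1047R. Over all WT peaks with a partner the medians were -0.21 in E545K and 0.05 in H1047R, so the domains stood above the rest of the list in E545K and below it in H1047R. Past 1.5 times, area was lower in 8 domains and higher in 30 in E545K, where 36.9% of all WT peaks were lower or had no peak and 7.95% were higher. In H1047R it was lower in 58 and higher in 16, against 19.4% and 15.5% of all WT peaks. When the area is cut to the share of each peak that lies inside the domain, the E545K median is -0.17, and when it is divided by the total of its list it is 0.13. The sign for E545K thus rests on the scaling.

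Set beside each other, E545K covered more of a domain than H1047R in 160 of 213, less in 37 and the same in 16, with a median difference of 4.98 percentage points. Among all WT peaks E545K covered more in 26.1% and H1047R more in 49.0%. A lead of 50 points or more went to E545K in 16 domains (7.51%, against 3.2% of all WT peaks) and to H1047R in 1 (0.469%, against 12.4%). Of the 213, 71 domains were whole in both knock-ins, 63 were whole in E545K and split in H1047R, 21 were whole in E545K and shrunken in H1047R, and 35 were split in both. In the reverse direction, 6 were split in E545K and whole in H1047R. Other features of the lists move with this result. E545K peaks were wider than those of both other lists (median 539 bp in E545K, 466 bp in H1047R and 466 bp in WT), and E545K had 364 peaks of 5000 bp or more, H1047R 186 and WT 213. Their part in the result was not tested.

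**Figure D2:**
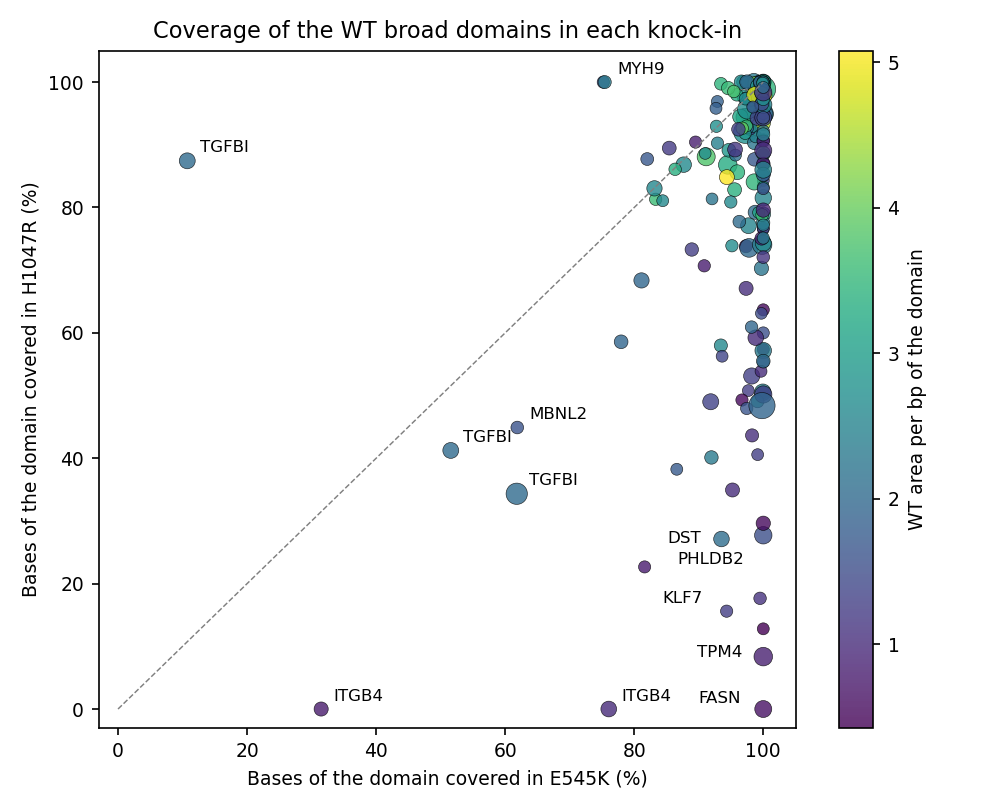
Percent of the bases of each of the 213 WT domains covered by E545K peaks (horizontal) and H1047R peaks (vertical). Each point is a domain, its size grows with WT width and its colour gives WT area per bp. The dashed line marks equal coverage. Most points lie at the right edge below the line, and the downstream TGFBI domain (10.7% in E545K, 87.4% in H1047R) lies alone at the upper left.

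Because the domains were chosen for their width in WT, the broad peaks of the other lists were looked up in the same way. Of the 364 E545K peaks of 5000 bp or more, 32.4% were whole in WT and 24.7% in H1047R. Of the 186 such H1047R peaks, 64.5% were whole in E545K and 52.2% in WT. The WT domains were whole in 73.2% of cases in E545K and 36.2% in H1047R. Looked up in either direction, broad stretches were thus kept most often in E545K and least often in H1047R. When broad peaks of the 3 lists that overlap were merged, they formed 429 regions. Of these, 104 were broad in all lists, 63 in E545K and WT, 7 in H1047R and WT, 25 in both knock-ins, 162 in E545K alone, 42 in H1047R alone and 26 in WT alone. A broad partner was present for 178 WT domains (83.6%) in E545K and for 121 (56.8%) in H1047R.

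**Figure D3:**
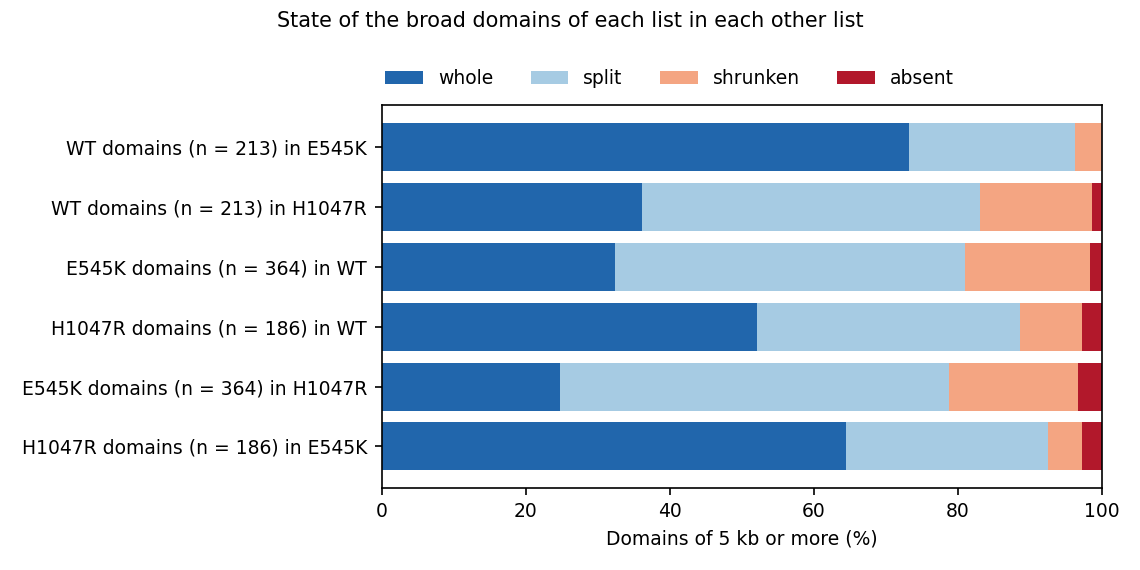
State of the broad peaks (5000 bp or more) of each list when looked up in each other list. Bars give the percent that were whole, split, shrunken or absent. WT domains were whole in 73.2% of cases in E545K and 36.2% in H1047R, and 32.4% of E545K domains and 52.2% of H1047R domains were whole in WT.

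The bases that went uncovered lay away from gene starts. They came to 77.2 kb in E545K and 349.8 kb in H1047R. In E545K 57.6% of them were at the edges of a domain and 42.4% between peaks. In H1047R 53.04% were at edges, 37.4% between peaks and 9.56% in domains with no peak. Within 2 kb of a coding start lay 4.33% of the uncovered and 26.2% of the covered bases in E545K, and 6.02% and 30.0% in H1047R. In H1047R 84.4% of the uncovered bases lay in coding gene bodies, against 68.7% of the covered ones. In E545K the shares were closer, at 68.1% and 71.9%. The gaps were also longer in H1047R, where 73 domains had a gap over 1000 bp, against 10 in E545K, and the longest was 13968 bp, against 7785 bp in E545K. The WT summit base was nonetheless covered in 213 domains in E545K (100%, against 79.6% of all WT peaks). In H1047R it was covered in 210 (98.6%, against 88.9%). The highest summit of the knock-in lay within 200 bp of the WT summit in 171 domains in E545K and 164 in H1047R.

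Most domains with large losses held no coding start. Of the 24 domains under 50% covered in H1047R, 22 held no coding start, 17 lay wholly inside coding gene bodies and 20 had their summit in an intron or exon. E545K covered 90% or more of 17 of these 24. Put as shares, 22 of 99 domains without a start (22.2%) and 2 of 114 with a start (1.75%) were under 50% covered in H1047R, and the medians were 86.8% and 94.9%. In E545K the medians of the same groups were 98.8% and 99.8%. In the 94 domains with a single start, H1047R peaks covered 84.6% of the bases downstream of the start and 92.3% of those upstream, while E545K peaks covered 97.5% and 98.6%. Counted in bases the split was less marked. Domains without a start held 47.4% of all domain bases, 76.8% of the bases uncovered in E545K and 65.9% of those uncovered in H1047R.

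Height moved with this split. Domains without a start had a median of 1.62 area units per bp, against 2.63 for those with one. Ranked by height into 3 groups of 71 domains, median coverage in H1047R was 76.6% in the flattest group, 90.3% in the middle and 97.7% in the highest, with 17, 6 and 1 domains under 50% covered. E545K had 99.7%, 98.8% and 99.4% in the same order. Within the flattest group, 17 of 56 domains without a start and 0 of 15 with a start were under 50% covered in H1047R, and in the middle group 5 of 27 and 1 of 44. Across the 213 domains the Spearman rho of WT height with coverage was 0.44 for H1047R and -0.04 for E545K, as a description over points that share their libraries and the caller's threshold. How far height accounts for the losses was not tested.

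The widest domain of all lay over PLEC, which encodes plectin, the cytolinker that ties keratin filaments to hemidesmosomes (ENSG00000178209.17; chr8:143910388-143946966, 36579 bp). In E545K a single peak covered 99.8% of it with an area of 61564, in H1047R 5 peaks covered 48.4% with a summed area of 38386, and WT had an area of 70142. The longest H1047R gap there was 9530 bp, and most of what was left in H1047R was a 12116 bp peak. This domain belongs to the end of chromosome 8, and another PLEC domain of 6353 bp was 100% covered in E545K and 97.3% in H1047R.

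TNS4 encodes a tensin of focal adhesions (ENSG00000131746.13), and its domain (chr17:40467959-40502307, 34349 bp) held the whole gene. In E545K 1 peak of 37227 bp covered 99.9% of the domain with an area of 113652. In H1047R 2 peaks covered 98.9% with 115876, and WT had 117895. The H1047R sum includes a 42346 bp peak that reaches outside the domain. Limited to the part inside the domain, the area was 104811 in E545K and 85814 in H1047R, against 117895 in WT, so coverage hardly differed while area was lower in both knock-ins.

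The domain named for ADAMTSL4, a matrix microfibril gene (chr1:150548309-150576578, 28270 bp), also covered 83.2% of the body of MCL1, an anti-apoptotic BCL2-family gene that growth factors induce. In E545K 1 peak covered 97.2% with an area of 82111, in H1047R 3 peaks covered 92.1% with 68407, and WT had 76972. The KRT7 domain (18664 bp, a simple-epithelial keratin gene) was 100% covered by 1 peak in E545K and 94.9% by 4 in H1047R. The widest of 3 LMNA domains (17097 bp, lamin A/C) was 97.8% covered by 4 peaks in E545K and 73.6% by 6 in H1047R.

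The stretch at TGFBI, which encodes a secreted matrix protein induced by TGF-beta (ENSG00000120708.17), was the domain group that fell apart in both knock-ins. It was also the longest group of domains joined at gaps of up to 10 kb, with 3 domains over 52610 bp, of which E545K covered 46.4% and H1047R 49.4%. Called peaks took up 50.6% of the TGFBI gene in E545K cells (16 peaks) and 31.2% in H1047R cells (9 peaks), against 98.8% in WT cells (4 peaks). The upstream domain (chr5:136031775-136043360, 11586 bp) was 51.6% covered in E545K, by 7 peaks with an area of 6076, and 41.2% in H1047R, by 4 peaks with 5799, where WT had 23570. The middle domain (chr5:136045040-136068189, 23150 bp) was 61.8% covered in E545K, by 8 peaks with an area of 15890, and 34.3% in H1047R, by 5 peaks with 10979, where WT had 47147. In both domains each knock-in had more peaks and less area than WT.

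The downstream TGFBI domain (chr5:136072735-136084384, 11650 bp), whose summit sequence is printed above, went another way. It lies past the end of the gene, overlaps no coding gene and was named for the nearest start. E545K covered 10.7% of it with 2 peaks and an area of 1635, H1047R covered 87.4% with 3 peaks and 8787, and WT had 23521. It was the domain least covered in E545K and the one with a lead of over 50 points for H1047R. Its area was lower than in WT in both knock-ins, with log2 ratios of -3.85 in E545K and -1.42 in H1047R.

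ITGB4 encodes integrin beta 4, the laminin receptor of the hemidesmosome (ENSG00000132470.14). WT had 3 domains along it, the last of which also holds GALK1, the galactokinase gene, and together they spanned 40880 bp. E545K covered 77.8% of their bases and H1047R 36.0%. In the 8535 bp domain (chr17:75725554-75734088) E545K had 2 peaks with an area of 943 over 31.5% of the bases, H1047R had no peak, and WT had an area of 6475. In the 11276 bp domain (chr17:75735638-75746913) E545K had 3 peaks with 6126 over 76.1%, H1047R had none, and WT had 11123. The GALK1 domain (18780 bp) was 99.8% covered by 1 peak with an area of 32701 in E545K and 74.1% by 4 peaks with 19292 in H1047R, against 43784 in WT. H1047R peaks at the start of ITGB4 and over its last exons were thus separated by a stretch with no call, and called peaks took up 68.5% of the gene in E545K cells and 23.0% in H1047R cells, against 94.5% in WT cells.

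FASN, the fatty acid synthase gene (ENSG00000169710.9), and TPM4, a tropomyosin gene of actin filaments (ENSG00000167460.17), were wide open in E545K and WT and largely uncalled in H1047R. The FASN body domain (chr17:82078513-82092154, 13642 bp) lay within a single E545K peak of 21559 bp with an area of 16309, of which 10320 falls inside the domain, had no peak in H1047R and had an area of 8668 in WT. The same E545K peak also covered the neighbouring 5393 bp FASN domain, of which H1047R covered 55.3% with 3 peaks. At TPM4 the 16937 bp domain (chr19:16081797-16098733) lay within 1 E545K peak with an area of 24816, of which 20684 falls inside it, had 2 H1047R peaks over 8.36% of it with 1079, and had 14067 in WT. The 7778 bp domain at the TPM4 start was 100% covered in E545K and 55.5% in H1047R. Called peaks took up 98.3% of the TPM4 gene in E545K cells and 23.3% in H1047R cells, against 84.9% in WT cells. At FASN the shares were 98.3% in E545K cells and 14.8% in H1047R cells, against 84.9% in WT cells. Both genes thus had a wider called stretch in E545K than in WT and a much narrower one in H1047R. The WT height of these body domains was low, at 0.635 per bp for FASN and 0.831 for TPM4.

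**Figure D4:**
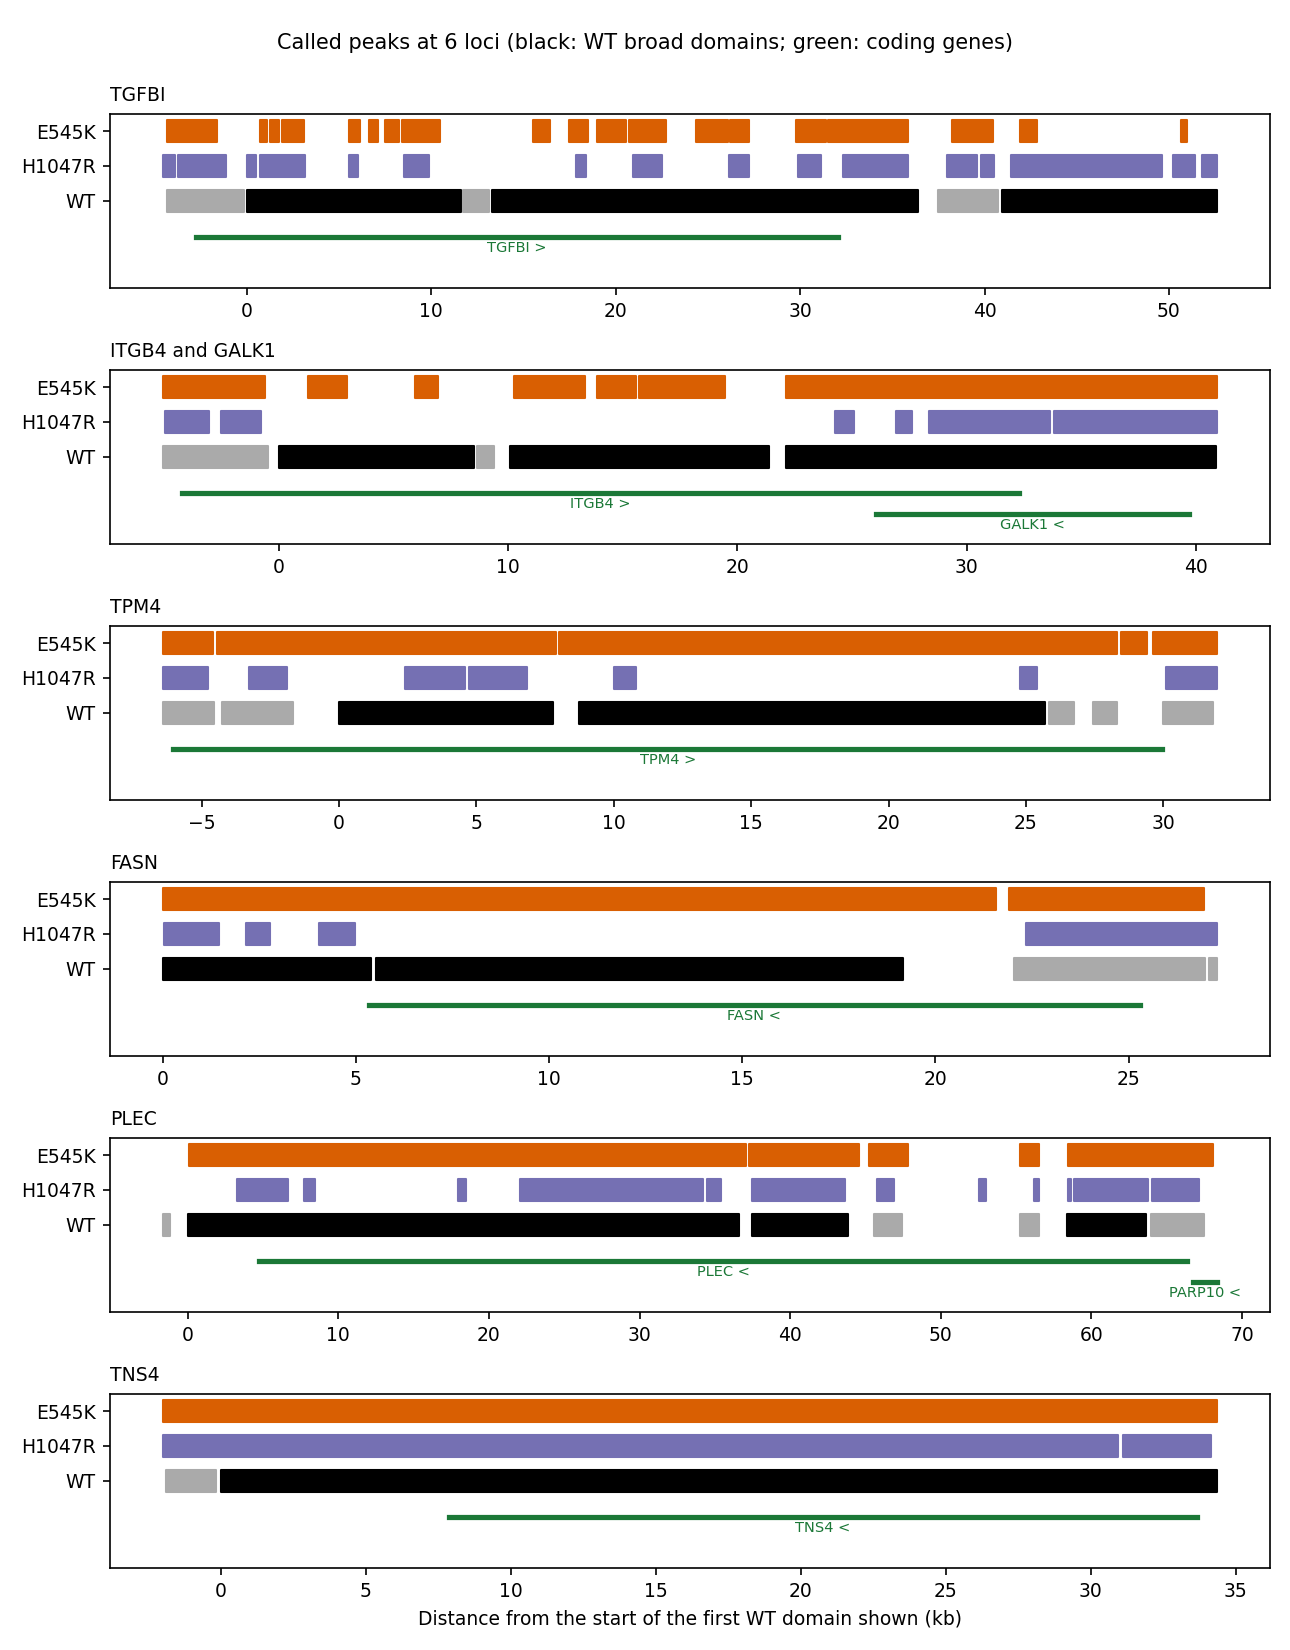
Called peaks at 6 loci, with E545K (orange) on top, H1047R (violet) below it and WT at the bottom, where black bars are domains of 5000 bp or more and grey bars other peaks. Green lines are coding genes with their direction, and the horizontal axis gives the distance in kb from the start of the first domain shown. H1047R bars are missing over most of the ITGB4, TPM4 and FASN bodies, the TGFBI stretch is broken up in both knock-ins, and TNS4 is nearly whole in all lists.

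Other domains with little left in H1047R lay in genes of varied roles. PHLDB2, whose product anchors microtubules at the basal cortex, had a 14502 bp domain that 1 E545K peak covered fully with an area of 25842 and 6 H1047R peaks covered to 27.7% with 2686, against 22292 in WT. DST, the gene of the plakin dystonin, had a 10992 bp domain covered to 93.5% in E545K with an area of 17066 and to 27.1% in H1047R with 4195, against 22740 in WT. The WT height was 1.54 per bp at PHLDB2 and 2.07 per bp at DST, both below the median of all domains. Lower still were SCRIB (100% covered in E545K and 12.8% in H1047R), CPSF1, an mRNA cleavage factor gene (100% and 29.6%), and CTNS, a lysosomal cystine transporter gene (81.6% and 22.7%). KLF7, a zinc-finger factor gene, stood at 94.3% in E545K and 15.6% in H1047R, and a domain in ENSG00000284695 at 99.5% and 17.7%. SGK1, a kinase gene downstream of PI3-kinase and glucocorticoids, stood at 92.0% in E545K and 40.1% in H1047R. CCN2, a matricellular YAP target, stood at 99.1% and 49.1% and was, with PLEC, a domain with a coding start under 50% covered in H1047R.

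Other domains were also partly uncovered in E545K. MBNL2, a splicing regulator gene, was 61.9% covered in E545K and 44.9% in H1047R. IRS2, an adaptor that links insulin and IGF receptors to PI3-kinase, was 78.0% covered in E545K and 58.6% in H1047R, with areas of 9828 in E545K, 9347 in H1047R and 15365 in WT. SLC7A5, a leucine transporter gene, stood at 81.1% in E545K and 68.4% in H1047R. SPC24, a kinetochore gene, and MYH9, a non-muscle myosin gene, were covered to 75.2% and 75.4% in E545K and fully in H1047R. H1047R also covered slightly more at PKP1 (93.4% in E545K and 99.7% in H1047R), EEF1A1 (82.0% and 87.7%), IRX2 (94.6% and 99.0%), another SLC7A5 domain (85.4% and 89.5%) and another KRT7 domain (92.9% and 96.9%).

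Some domains were part of a much wider knock-in peak. In E545K a 31047 bp peak took in the domains at COQ8B and ITPKC (11728 bp) and at ACTMAP (5177 bp), a 28295 bp peak took in 2 domains over the let-7b host gene near PPARA, and a 21219 bp peak took in a SCRIB domain of 6354 bp. In H1047R a 32239 bp peak joined the CAMK1G domain with 2 domains in LAMB3, which encodes a chain of laminin-332, and a 24971 bp peak joined the S100A2 domain with that of S100A3 and S100A4, genes of calcium-binding proteins. At the 5140 bp LAMB3 domain the overlapping peak had an area of 25532 in E545K and 69589 in H1047R, against 5334 in WT, which counts the whole of each wider peak. Limited to the part inside the domain, the areas were 7060 in E545K and 11095 in H1047R. In all, the widest overlapping peak was wider than the domain in 112 of 213 in E545K and in 53 in H1047R. Of all 98910 WT peaks, 38133 had a wider overlapping peak in E545K and 50690 in H1047R.

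Neighbouring domains often stood together. At gaps of up to 10 kb, 51 of the 213 domains formed 23 groups, of which TGFBI, ITGB4 with GALK1, and LMNA with SEMA4A each had 3 domains. The LMNA group spanned 37369 bp and was 98.7% covered in E545K and 85.6% in H1047R. The 2 ERRFI1 domains spanned 24653 bp and were 94.7% and 62.8% covered. The group at CAMK1G and LAMB3 was 99.5% covered in E545K and 100% in H1047R. At 19 genes of 10 kb or more a domain held 50% or more of the gene body.

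Gene lists show which functions the domains touched. The lists were drawn up with earlier results of these data in view, so their counts are descriptions set beside the 0.717% of coding genes with a start in a domain and the 1.28% with a body overlapped. Of 30 genes of the early response to EGF and MAP kinase signalling, 15 (50%) started in a domain. They were the AP-1 genes FOS, FOSB, FOSL2, JUNB, JUND and ATF3, the zinc-finger genes EGR1 and KLF6, MYC and BHLHE40, IER2, the mRNA decay factor gene ZFP36, and the MAP kinase phosphatase genes DUSP1, DUSP4 and DUSP5. ERRFI1, whose product restrains EGF receptor signalling, and MCL1 were touched in their bodies. Members outside all domains included FOSL1, JUN, EGR2, EGR3, DUSP6 and the Sprouty genes SPRY2 and SPRY4.

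The 19 domains of the early response genes were 99.7% covered in E545K and 86.8% in H1047R at the median, beside 99.4% and 91.8% for all domains, and 1 of them, at ERRFI1, was under 50% covered in H1047R (49.0%, and 91.9% in E545K). The EGR1 domain (9986 bp) had an area of 43377 in E545K and 30181 in H1047R, against 50715 in WT. The DUSP1 domain (12103 bp) had 57139 in E545K (49000 of it inside the domain), 47268 in H1047R and 58548 in WT, and the FOS domain (8518 bp) 35583, 24328 and 38663. The domain at JUND, which also holds the start of IQCN, stood apart with 99.9% of its 12709 bp covered in E545K and 50.5% in H1047R. The body of JUND itself was 100% covered in both knock-ins, so the uncovered bases lay outside that gene. At EGR1, DUSP1 and FOS the area was thus lowest in H1047R and highest in WT. That order was not common to all 19 domains. At the ATF3 domain that holds the gene start (9259 bp) the area was 27002 in E545K, 16464 in H1047R and 24524 in WT.

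Promoters of the early response genes are known for serum response elements, called CArG boxes, and cAMP response elements. The 250 bases before the start of EGR1 and DUSP1 are shown, on the strand of the gene and from RefSeq on GRCh38.p14, because these domains were among the highest of the list. Capitals mark CArG boxes in EGR1 (chr5:138465229-138465478, plus strand), and in DUSP1 (chr5:172771196-172771445, minus strand) a cAMP response element, searched as TGACGTCA, and KLF-SP matches, searched as GGGCGGG, on both strands.
EGR1: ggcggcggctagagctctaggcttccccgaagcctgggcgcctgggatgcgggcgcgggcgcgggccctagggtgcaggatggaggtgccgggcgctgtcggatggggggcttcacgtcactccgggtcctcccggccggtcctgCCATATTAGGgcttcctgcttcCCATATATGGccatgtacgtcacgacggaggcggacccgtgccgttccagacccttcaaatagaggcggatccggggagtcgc
DUSP1: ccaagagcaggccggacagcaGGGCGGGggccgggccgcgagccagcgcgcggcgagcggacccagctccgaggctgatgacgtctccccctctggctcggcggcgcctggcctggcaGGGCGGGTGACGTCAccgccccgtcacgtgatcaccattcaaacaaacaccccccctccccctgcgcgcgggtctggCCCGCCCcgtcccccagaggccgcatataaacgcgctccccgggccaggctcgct
Promoters in the table matched 12 of the 15 early response genes by symbol. For 11 of them the promoter lay at least in part in the domain, and for ATF3 it belongs to another start outside the domain and was left out. A CArG box was in 1 of the 11, against 1.18% of 14616 autosomal coding promoters, a cAMP response element in 2 against 2.40%, and a KLF-SP match in 8 against 43.8%.

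Genes of focal adhesions and hemidesmosomes were also well represented, but those of desmosomes and other cell junctions were not. Of 26 focal adhesion and actin genes, 6 (23.1%) started in a domain, namely TNS4, ZYX, ACTN1, ACTB, TPM4 and LMNA, and MYH9 was touched in its body. Their 12 domains were 98.7% covered in E545K and 82.9% in H1047R at the median. Of 11 genes of the hemidesmosome, laminin-332 and plakins, PLEC started in a domain and ITGB4, LAMB3, DST and CD151 were touched in their bodies. Of the 11 domains at these genes, 1 was under 50% covered in E545K and 4 in H1047R, beside 0.939% and 11.3% of all domains. None of 24 desmosome and junction genes started in a domain, and PKP1 alone was touched in its body (4.17%). Of 22 housekeeping genes, 2 started in a domain (9.09%) and 3 had a body overlapped (13.6%), with ACTB in that list too. The longer ACTN1 domain (12174 bp, alpha-actinin) was 98.2% covered in E545K and 53.1% in H1047R, and the longer ZYX domain (11054 bp, zyxin) 98.8% and 59.2%. The ACTB domain (15789 bp, beta-actin) was 91.2% covered in E545K and 88.1% in H1047R, with areas of 48961 in E545K, 31235 in H1047R and 59791 in WT.

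Among markers of cell types, those of basal breast epithelium were the most often in a domain. Of 26 basal and myoepithelial markers, KRT5, KRT17, KRT6A, EGFR and S100A2 started in a domain (19.2%), whereas of 22 luminal markers only KRT7 did, with MUC1 touched in its body. None of 15 immune markers, none of 16 endothelial, fibroblast and neural markers, none of 39 HOX genes and none of 23 NF-kB and inflammatory genes had a domain on its start or body. The KRT16 and KRT17 domain (14680 bp) was 100% covered in E545K and 97.9% in H1047R, with areas of 60191 in E545K and 54419 in H1047R, against 72755 in WT. Inside the domain the area was 46542 in E545K, whose peak reaches beyond it, and 54057 in H1047R, so the order of the knock-ins turns with that choice. The EGFR domain (5217 bp) was 84.4% covered in E545K and 81.1% in H1047R. Of 13 glucocorticoid response genes, PER1, DUSP1 and MT2A started in a domain (23.1%), and ZBTB16, SGK1 and ERRFI1 were touched in their bodies, which made 6 by body (46.2%). Their 7 domains were 97.7% covered in E545K and 82.8% in H1047R at the median, and hydrocortisone was in the medium of every group. The PI3-kinase pathway list had IRS2 alone among 30 starts, with SGK1 by its body, and the FOXO list had FOXO3 and KLF6 among 18. The TGF-beta and WNT list had no start among 26, with TGFBI touched in its body.

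**Figure D5:**
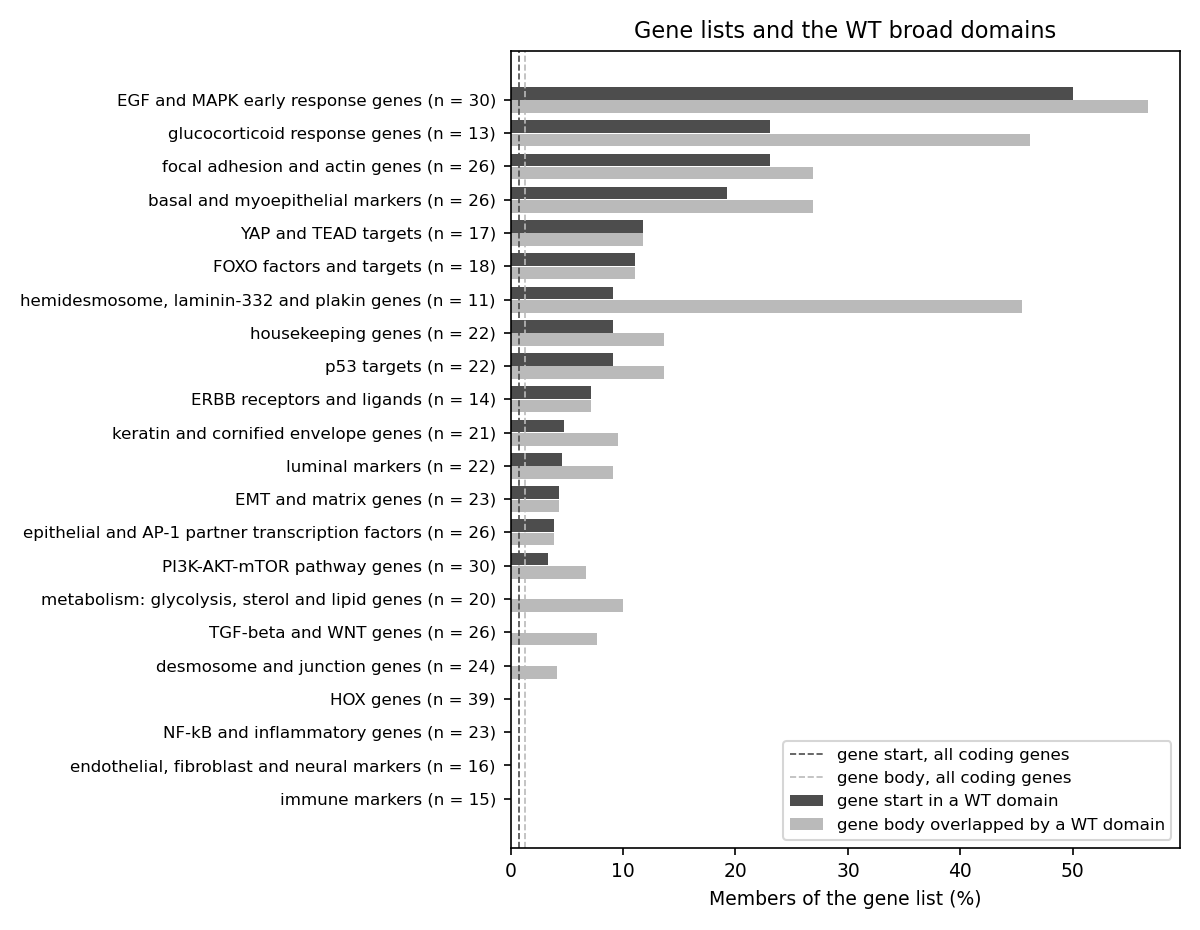
Percent of the members of each of 22 gene lists whose start lies in a WT domain (dark bars) or whose body is overlapped by a WT domain (light bars), with the number of autosomal coding members in brackets. Dashed lines give the same shares over all coding genes (0.717% and 1.28%). The early response list leads with 50%, and 4 lists have no member in a domain.

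Many domains also held non-coding RNA genes, and a long non-coding RNA started in 68. Neighbouring domains of 21210 and 18915 bp lay over NEAT1, the scaffold RNA of paraspeckles, and were 100% and 99.4% covered in E545K and 94.9% and 97.5% in H1047R. A 6247 bp domain over MALAT1, an RNA of nuclear speckles, was 100% covered in E545K and 97.9% in H1047R. These domains lie next to coding genes that they do not overlap.

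MicroRNA genes started in 22 domains, 28 genes in all, of which 21 had a mature sequence in RefSeq (GRCh38.p14). Those of best known epithelial roles are shown, with the seed (bases 2 to 8) in capitals. The miR-23a, miR-27a and miR-24 genes sit in 1 cluster, in the 20091 bp domain named for ZSWIM4 that MIR23AHG fills to 90.3%. The let-7 pair sits in the 13604 bp domain near PPARA.
miR-205-5p: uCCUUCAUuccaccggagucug
miR-21-5p: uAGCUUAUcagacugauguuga
miR-23a-3p: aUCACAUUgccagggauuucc
miR-27a-3p: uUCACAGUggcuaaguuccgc
miR-24-3p: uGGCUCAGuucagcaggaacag
let-7a-5p: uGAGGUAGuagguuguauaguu
let-7b-5p: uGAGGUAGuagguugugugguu
The let-7 pair shares the seed GAGGUAG, and the other seeds differ. The domain at miR-205, an RNA of basal epithelial cells (9106 bp), had 1 peak with an area of 34334 in E545K, 1 with 25351 in H1047R and an area of 37992 in WT. The miR-21 domain in VMP1 (10555 bp) had 37650 in E545K (31229 of it inside the domain), 31996 in H1047R and 33369 in WT, and was 96.4% and 94.5% covered. The miR-23a cluster domain had 44813 in E545K, 38284 in H1047R and 54517 in WT. Of the mature sequences shown, E545K peaks covered all, and H1047R peaks all but that of the let-7a-3 gene, which fell in a gap.

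At their summits the domains held KLF-SP motifs more often and AP-1 motifs less often than WT peaks as a whole. The AP-1 motif TGANTCA, the element of FOS and JUN dimers, was in the 300-base summit window of 22.1% of domains (interval 17.0 to 28.1) and of 37.3% of all WT peaks. The KLF-SP motif GGGCGGG was in 36.6% of domains (30.4 to 43.3) and 11.8% of all WT peaks. The shares differed by position. Among windows away from promoters AP-1 was in 27.8% of 133 domains and 41.4% of WT peaks, and among promoter windows in 12.5% of 80 domains and 5.91% of WT peaks. KLF-SP was in 21.8% of domain windows away from promoters and 5.94% of such WT windows, and in 61.3% and 56.7% of promoter windows. Among the 2000 WT peaks of largest area, the 1812 that were under 5000 bp held AP-1 in 12.9% and KLF-SP in 58.3%, so the domains stood between the strongest short peaks and the average peak. Over whole peaks AP-1 sites numbered 0.276 per kb in domains and 0.883 in all WT peaks, and KLF-SP sites 0.715 and 0.727, so the higher KLF-SP share of the summit windows was not there over whole peaks.

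Within the domains, covered and uncovered bases differed in the same elements. In H1047R the uncovered bases held 0.143 AP-1 sites per kb and the covered ones 0.309, and for KLF-SP 0.312 and 0.814. RUNX motifs (TGTGGTT) were at 0.163 per kb in both, and TEAD motifs (GGAATG) at 0.497 in the uncovered and 0.583 in the covered bases. In E545K, with fewer uncovered bases, AP-1 stood at 0.233 in the uncovered and 0.277 in the covered bases, and KLF-SP at 0.168 and 0.739. GC content was 52.8% in the bases uncovered in H1047R and 56.8% in the covered ones, and 48.2% and 56.4% in E545K. CpG dinucleotides numbered 24.8 and 34.2 per kb in H1047R, and 17.7 and 33.0 in E545K. Base composition and distance from starts move with these motif densities, and their part was not tested.

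The end of the chromosome 8 long arm, where domains were densest, was set beside all other sequence. Its 15 domains were 100% covered in E545K and 79.6% in H1047R at the median, with median log2 areas of 0.58 in E545K and -0.08 in H1047R, against -0.05 and -0.22 over the 195 domains on other autosomal sequence. E545K had 37 broad peaks there, H1047R 11 and WT 15. Without that region and the short arm of chromosome 5, median coverage was 99.3% in E545K and 92.1% in H1047R, so the contrast between the knock-ins was there without it.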

How the data were processed

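ATAC-seq was made from 6 samples, 2 per genotype. Per the submitters' processing notes, the authors used Trim Galore 0.4.0, cutadapt and SAMtools, the hg38 build, and Genrich 0.6.1 for peak calling. No aligner is named there. Per the labels, both samples of a genotype share 1 deposited peak list. Each deposited peak has a signal value, which in this caller's output is an area under its curve (at least 200, not scaled between lists), and a deposited -log10 p for its summit. The lists cover 22 autosomes, and peaks lie at least 101 bp apart. Depth is unknown.

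The domains, gene lists and named items were chosen with earlier results of these data known. Coverage, overlapping peaks (at least 1 bp) and areas were computed with Python 3.11.15, numpy 2.4.6 and pandas 2.3.3, and figures with matplotlib 3.10.9. Against bedtools 2.31.1, 852 values gave 0 differences, and on simulated data 213 of 213 domains were recovered. Every peak fell inside the chromosome lengths of hg38, and gene models were the canonical transcripts of GENCODE 44. A domain was named for coding genes that start in it, else the coding gene it overlaps most, else the nearest start. Motifs were exact matches on both strands, 12 in all, in 300 bases around the summit. The motifs named in the text are AP-1 TGANTCA, TEAD GGAATG, RUNX TGTGGTT, KLF-SP GGGCGGG, NF-kB GGGNNNTCC, the p53 family by its name alone, and matches may overlap.

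Named were the 10 widest domains, the 10 least covered in each knock-in, the 8 with the largest difference each way between E545K and H1047R, the 5 with the largest widening by a single peak in each knock-in, those next to the width limit, gene list members in the widest domains and the 3 largest groups. Further domains under 50% covered in H1047R, the highest and flattest domains, non-coding RNAs and counts by coding start were chosen after their values were seen. Alternatives were other width limits, a larger area minimum, lists of equal length, other limits for whole and lost, other overlap, area scaling, windows and joining gaps, and the list without the ends of chromosomes 5 (short arm) and 8 (long arm). Some items and summit sequences are not reported here.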

Additional observations from a re-analysis of the deposited data

How the results depend on the processing

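No paired analysis was possible because both samples of a genotype are in 1 deposited list, and for the same reason no replicate could be left out. Over 15 results and 15 alternatives, 63 of 88 recomputed values moved little, 24 moved and 1 changed sign. The sign changed for the median log2 area in E545K, which was 0.13 after division by the list total, against -0.04 as deposited and -0.17 limited to the part of a peak inside the domain. With a minimum width of 4000 bp there were 425 domains, 44 groups and 271 genes with a start, and 44.7% of domains were whole in H1047R. With 10000 bp there were 46 domains, 5 groups and 24 genes, of which 4 were early response genes. In these, E545K had 63.04% whole, and H1047R had 17.4% whole, a median of 86.4% covered, 19.6% under 50% covered and a median log2 area of -0.51. E545K then led H1047R by a median of 9.01 points, and by 50 points or more in 13.0%, and AP-1 was in 28.3% of summit windows. With whole set at 80%, 79.3% of domains in E545K and 48.4% in H1047R were whole. With loss set at under 25% covered, 3.76% were lost in H1047R. Division by the list total moved the median log2 area in H1047R to -0.28. Joining gaps of 50 kb gave 35 groups, counting overlapped bodies gave 245 genes, and over whole peaks AP-1 had 0.276 sites per kb. E545K led H1047R at the median in all 5 alternatives run on that difference, by 3.09 to 9.01 points. The lists do not give the depth that would bound their precision.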
